A study of Mus musculus with 10 samples.

Results

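The regions described here carried an H3K27me3 peak in the R100 and R500 lymphoma lines, carried none in the parental, R1000 and R4000 lines, and lay within 5 kb of a transcription start site (TSS). To find them, the distinct peaks of all 5 lists were merged wherever they overlapped by at least 1 bp, which gave 47264 union regions. Of these, 3095 held a peak of R100 and R500 and of no other line, and 2127 of the 3095 (68.7%, 95% Wilson interval 67.1 to 70.3%) lay within 5 kb of the 5′ end of any of 37310 genes in the GENCODE annotation of mm9. These 2127 transient regions are referred to as members, and they made up 4.50% of all union regions and 8.36% of the 25448 union regions near a TSS. The members were chosen by presence in the 5 lists, so their presence in R100 and R500 and their absence elsewhere are a description and support nothing further.

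All 5 lines are mouse B-cell lymphoma cells of the Eμ-Myc model, in which an immunoglobulin heavy chain enhancer drives Myc in the B lineage, and all are Cdkn2a-/-. From 1 parental line, R100, R500, R1000 and R4000 were taken at 4 steps of a dose escalation with mafosfamide, an alkylating agent, at 100, 500, 1000 and 4000 nM, and were harvested on days 10, 18, 23 and 37. Cells for ChIP-seq were grown without the drug, and chromatin was precipitated with an antibody to H3K27me3. Each line is represented by 1 peak list, of 10778 (parental), 25180 (R100), 21888 (R500), 9595 (R1000) and 6820 (R4000) distinct peaks, with positions but no heights or counts. Sequencing depth is therefore unknown, replicate error cannot be given, and the lines were compared without a test. R100 and R500 have the longest lists, so a change in the mark and a change in how much was called cannot be told apart.

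H3K27me3 is placed by polycomb repressive complex 2 (PRC2) and marks genes that are kept silent. In most cell types it lies over CpG-rich promoters of developmental regulators, such as Hox, Sox, Pax and Fox genes, where it can spread into broad domains around the TSS. In B cells PRC2 is needed during differentiation, and its catalytic subunit Ezh2 is often mutated or overexpressed in lymphoma.

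Sequence is shown for 9 members, as 300 bp from the mm9 genome (NCBIM37) in the 5′ to 3′ direction of its + strand, with CpG dinucleotides in capitals. The first 4 are the widest members and show how such regions look at developmental regulators, namely Six2 (chr17:86086351-86086650), Sox13 (chr1:135319651-135319950), Ebf3 (chr7:144510951-144511250) and Foxd4 (chr19:24971826-24972125). The next 3 belong to Hoxa4 (chr6:52142226-52142525) and to the B-cell regulators Ebf1 (chr11:44433351-44433650) and Tcf3, which encodes E2a (chr10:79895201-79895500). The last 2 belong to the cyclin gene Ccna2 (chr3:36470226-36470525) and the elongation factor gene Eef1g (chr19:9041851-9042150), without a peak of the other lines nearby.
Six2: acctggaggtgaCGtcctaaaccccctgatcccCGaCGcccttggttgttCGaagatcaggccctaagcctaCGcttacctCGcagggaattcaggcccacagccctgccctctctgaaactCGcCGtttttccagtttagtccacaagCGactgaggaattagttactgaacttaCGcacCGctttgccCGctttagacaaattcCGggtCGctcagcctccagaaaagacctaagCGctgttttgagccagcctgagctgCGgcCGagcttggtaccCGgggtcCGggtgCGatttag
Sox13: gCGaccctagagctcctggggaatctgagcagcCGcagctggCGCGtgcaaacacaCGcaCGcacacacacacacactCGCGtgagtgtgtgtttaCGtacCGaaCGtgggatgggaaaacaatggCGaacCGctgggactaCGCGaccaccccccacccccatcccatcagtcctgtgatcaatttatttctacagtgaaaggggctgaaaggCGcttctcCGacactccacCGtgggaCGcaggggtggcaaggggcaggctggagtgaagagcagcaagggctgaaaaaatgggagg
Ebf3: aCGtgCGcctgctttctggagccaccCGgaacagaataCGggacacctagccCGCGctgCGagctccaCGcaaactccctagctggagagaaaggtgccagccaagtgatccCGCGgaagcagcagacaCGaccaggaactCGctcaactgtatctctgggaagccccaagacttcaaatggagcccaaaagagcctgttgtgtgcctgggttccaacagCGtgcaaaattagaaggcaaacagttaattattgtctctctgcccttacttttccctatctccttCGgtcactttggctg
Foxd4: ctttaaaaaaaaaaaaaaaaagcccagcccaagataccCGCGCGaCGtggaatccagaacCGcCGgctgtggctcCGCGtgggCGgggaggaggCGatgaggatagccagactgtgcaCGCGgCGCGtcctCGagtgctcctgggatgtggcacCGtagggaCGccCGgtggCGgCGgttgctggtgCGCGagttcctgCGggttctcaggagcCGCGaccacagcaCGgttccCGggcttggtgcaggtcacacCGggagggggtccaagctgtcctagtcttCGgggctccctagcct
Hoxa4: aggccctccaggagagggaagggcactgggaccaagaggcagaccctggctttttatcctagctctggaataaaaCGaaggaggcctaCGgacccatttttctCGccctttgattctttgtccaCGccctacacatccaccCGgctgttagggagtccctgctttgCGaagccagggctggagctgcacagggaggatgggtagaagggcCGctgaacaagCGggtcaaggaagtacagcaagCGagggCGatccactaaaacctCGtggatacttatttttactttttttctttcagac
Ebf1: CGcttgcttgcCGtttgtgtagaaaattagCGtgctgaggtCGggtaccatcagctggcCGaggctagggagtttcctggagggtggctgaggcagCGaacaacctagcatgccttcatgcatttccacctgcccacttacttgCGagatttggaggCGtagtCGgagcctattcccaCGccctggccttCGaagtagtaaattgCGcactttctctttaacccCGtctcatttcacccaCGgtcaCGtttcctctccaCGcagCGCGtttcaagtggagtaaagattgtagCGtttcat
Tcf3: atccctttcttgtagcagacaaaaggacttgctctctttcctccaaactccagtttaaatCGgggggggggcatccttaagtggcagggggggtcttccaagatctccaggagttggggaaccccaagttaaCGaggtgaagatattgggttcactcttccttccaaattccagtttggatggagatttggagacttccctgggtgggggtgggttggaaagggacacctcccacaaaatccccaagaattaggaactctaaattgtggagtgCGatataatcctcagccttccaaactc
Ccna2: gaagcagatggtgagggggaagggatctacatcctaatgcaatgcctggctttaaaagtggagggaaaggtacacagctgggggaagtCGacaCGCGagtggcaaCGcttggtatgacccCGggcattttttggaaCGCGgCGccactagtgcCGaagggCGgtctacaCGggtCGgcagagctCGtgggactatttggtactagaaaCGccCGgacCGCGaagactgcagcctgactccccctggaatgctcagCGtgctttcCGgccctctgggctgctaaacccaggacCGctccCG
Eef1g: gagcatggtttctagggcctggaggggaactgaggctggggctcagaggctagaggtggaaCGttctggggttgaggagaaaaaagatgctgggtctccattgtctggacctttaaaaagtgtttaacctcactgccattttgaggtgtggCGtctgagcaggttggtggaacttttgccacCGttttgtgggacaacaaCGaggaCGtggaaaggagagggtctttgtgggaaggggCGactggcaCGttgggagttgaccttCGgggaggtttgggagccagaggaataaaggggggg
The number of CpGs in these windows ran from 29 at Foxd4, 21 at Ccna2 and 20 at Six2 down to 8 at Eef1g and 3 at Tcf3. Sox13 and Ebf1 held 19 each, Ebf3 held 14 and Hoxa4 held 11. The windows at Six2, Sox13, Ebf1, Tcf3 and Ccna2 were intronic, those at Ebf3 and Foxd4 were intergenic, and those at Hoxa4 and Eef1g held 2 and 91 bp of exons outside coding sequence and UTRs.

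The members were short stretches of chromatin that R100 and R500 covered in part together and in part alone. Their median width was 250 bp (quartiles 150 and 350 bp, range 50 to 1400 bp), and all peaks lay on a grid of 50 bp. R100 peaks covered a median of 150 bp of a member and 433 kb in all, and R500 peaks covered a median of 150 bp and 381 kb in all. Both lines covered 239 kb, which is 41.6% of the 575 kb of members, with a median of 100 bp of a member in both, and 2043 members (96.1%) held a single peak of each line. R100 covered more bases than R500 in 1001 members (47.1%, 95% interval 44.9 to 49.2%), R500 covered more in 748 (35.2%, 33.2 to 37.2%), and 378 were equal. R100 and R500 peaks had the same extent in 187 members. Across members, Spearman's rho of the 2 covered lengths was 0.25 (n = 2127), which is a description over regions that share both libraries.

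**Figure D1:**
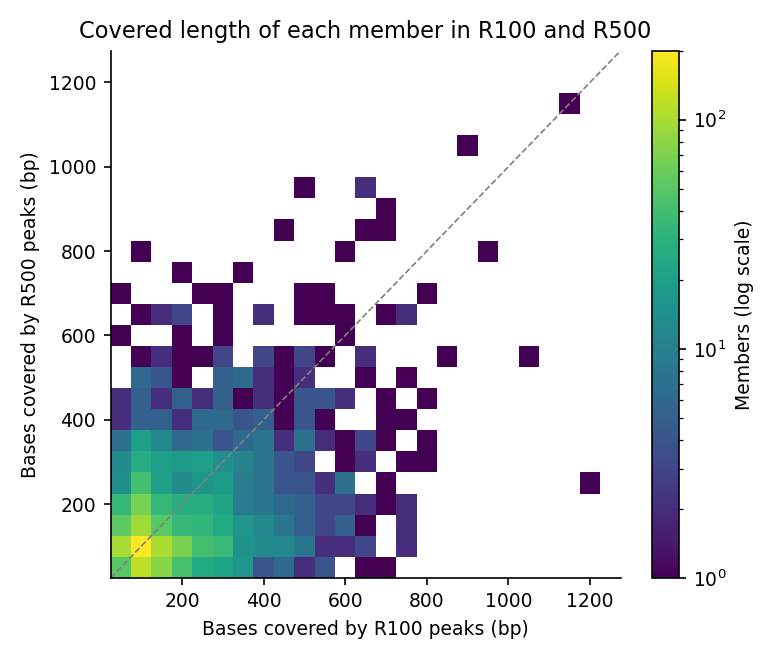
Bases covered by R100 peaks (x axis, bp) and by R500 peaks (y axis, bp) in each of the 2127 members, with colour for the number of members on a log scale and a dashed line at equal length. Most members lie at short lengths in both lines, Six2 lies at 1150 bp in both, and Sox13 lies at 1200 bp in R100 and 250 bp in R500.

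Members were narrower than regions that also held peaks of other lines. The 1371 regions near a TSS with a peak in all 5 lines had a median width of 1000 bp, and the 1384 regions gained in R100 and R500 and kept in R1000 or R4000 had a median of 400 bp. Regions near a TSS found in R100 alone (7870) or in R500 alone (5580) had a median of 100 bp. Merging overlapping peaks of 2 lines widens a region, so covered length in R100 alone is the closer comparison: it had a median of 150 bp in members, 100 bp in R100-only regions, 300 bp in the kept regions and 800 bp in the regions of all 5 lines. Among regions that R100 and R500 shared without the parental line, 39.4% (37.8 to 41.0%) of those near a TSS and 27.8% (25.5 to 30.3%) of those farther away were kept in R1000 or R4000, so the remaining regions, the members and their distal counterparts, made up a smaller part near the TSS.

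The widest members lay at developmental and signalling genes. The widest of all, at chr17:86085801-86087200, began 394 bp downstream of the TSS of Six2, a homeobox factor of kidney progenitors, with 468 bp of coding exon and 932 bp of intron. It was covered over 1150 bp in R100 and 1150 bp in R500, and parental, R1000 and R4000 peaks lay 450, 200 and 750 bp away. A member of 1200 bp in an intron of Sox13, an SRY-box factor, was covered over 1200 bp in R100 and 250 bp in R500, and its nearest peak of the other lines was 8750 bp away. The member of the same width 4373 bp upstream of Ebf3, a relative of early B-cell factor, was covered over 700 bp in R100 and 900 bp in R500, with parental, R1000 and R4000 peaks within 350 bp. At Foxd4, a forkhead factor, R100 covered 600 bp and R500 covered 800 bp of a member 1150 bp wide. Six2, Ebf3 and Foxd4 were thus flanked by peaks of the lines that lacked the member itself, and Sox13 was not.

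Of the 12 widest members, 4 were 1050 bp wide. At Artn, which encodes a neurotrophic ligand of the GDNF family, R100 covered 700 bp and R500 covered 850 bp. Ptger2, a prostaglandin E2 receptor gene, was covered over 1050 and 550 bp, and parental and R1000 peaks abutted the member directly. Mapk15, an atypical MAP kinase gene, was covered over 650 bp in R100 and 850 bp in R500, and the nearest peak of the other lines lay 10300 bp away. The remaining 4 were 950 to 1000 bp wide and lay at Gm13425, at Ccdc109b, a mitochondrial calcium channel subunit gene, at the microRNA gene Mir148a and at Rnf150, a RING finger gene. In R100 these 4 were covered over 500 to 950 bp and in R500 over 650 to 950 bp.

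Members lay downstream of the TSS more often than upstream, as did the other regions near a TSS. The midpoint of 1222 members (57.5%, 55.3 to 59.5%) lay within 1 kb of the nearest TSS and 1346 (63.3%, 61.2 to 65.3%) lay downstream of it. The first 1 kb downstream held 826 members (38.8%) and the 1 kb upstream held 396 (18.6%). Of all union regions near a TSS, 59.5% lay downstream and 32.4% in the first 1 kb, and these shares were 62.8% and 36.9% in R100-only regions and 63.7% and 36.7% in the regions of all 5 lines. The TSS itself was covered by 117 members (5.50%, 4.61 to 6.55%), against 4.16% (3.92 to 4.41%) of all union regions near a TSS, 2.11% of R100-only and 1.42% of R500-only regions, which are narrower. The share was 27.6% (25.3 to 30.1%) in the regions of all 5 lines and 9.97% (8.50 to 11.7%) in the kept regions, which are wider. Around the TSS of the 1807 members whose nearest gene was protein-coding, coverage was highest 250 bp downstream, in 12.9% of members in R100 and 11.9% in R500. At the TSS it was 3.76% in R100 and 2.99% in R500, and the upstream maximum was 5.42% in R100, at 250 bp, and 4.76% in R500, at 350 bp. Both lines therefore showed a low point over the TSS between a larger downstream and a smaller upstream maximum.

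**Figure D2:**
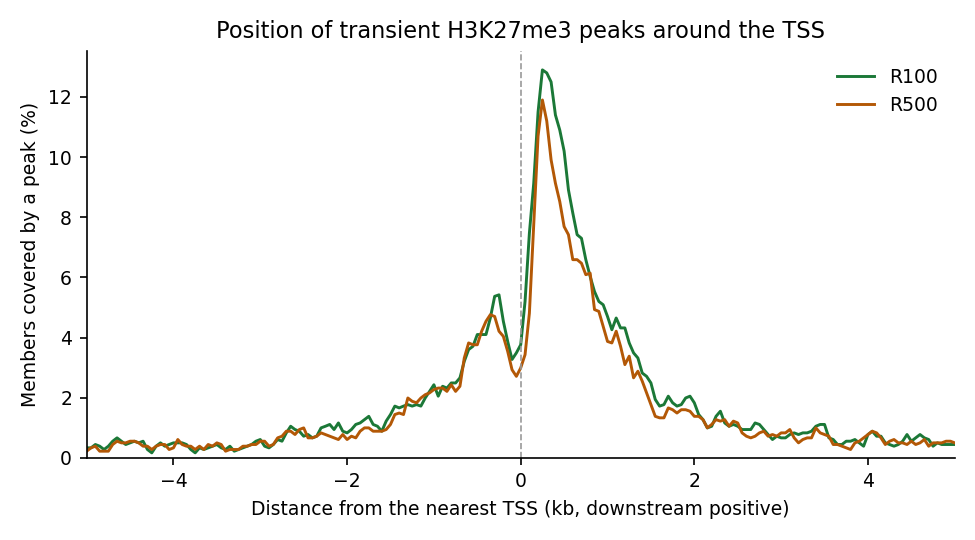
Share of the 1807 members with a protein-coding nearest gene that is covered by an R100 or R500 peak (y axis, %) at each distance from the TSS (x axis, kb, downstream positive). Both curves reach their maximum 250 bp downstream, at 12.9% in R100 and 11.9% in R500, and fall to 3.76% and 2.99% at the TSS (dashed line).

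A place near the TSS was common among the other regions of R100 and R500 as well. The midpoint lay within 1 kb of the TSS in 53.8% (52.7 to 54.9%) of R100-only regions and 43.4% (42.1 to 44.7%) of R500-only regions, and in 66.5% (64.0 to 69.0%) of the kept regions. Of the bases in members, 42.9% were intronic, 29.1% intergenic, 13% coding, 10.3% in UTRs and 4.68% in other exons. In the regions of all 5 lines the order was the same, with 44.7% intronic, 26.8% intergenic, 12.2% coding, 10.9% in UTRs and 5.39% in other exons.

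The CpG content of members lay between that of R100-only regions and that of regions that were kept, and most members were not CpG-rich. In the 500 bp around the midpoint, the median GC content of members was 56.0% and the median ratio of observed to expected CpG was 0.51. With a GC content of at least 50% and a CpG ratio of at least 0.6, 840 members (39.5%, 37.4 to 41.6%) were CpG-rich, against 30.2% (29.6 to 30.7%) of all union regions near a TSS. This share was 12.8% (10.9 to 15.1%) in the 968 distal transient regions, 34.6% (33.6 to 35.7%) in R100-only and 23.2% (22.1 to 24.3%) in R500-only regions near a TSS. It was 51.3% (48.7 to 53.9%) in the kept regions and 44.4% (41.8 to 47.1%) in the regions of all 5 lines.

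Short motifs were counted on both strands of the 300 bp around the midpoint of each region. This was done for the members and for the 23321 other union regions near a TSS. The median width was 250 bp in members and 100 bp in all union regions near a TSS. Many windows therefore reach beyond the region itself. The Sp/Klf-type motif GGGCGG was in 27.4% of members and 21.0% of the others, and the Ets-type motif CCGGAAG was in 4.75% and 3.68%. The E-box CAGCTG was in 19.4% of members against 16.7%, and CAGGTG, an E-box read by E2a, was in 26.8% against 24.8%. The Myc-type E-box CACGTG was in 5.41% of members and 5.49% of the others. CCAAT was in 25.2% against 29.6% and TATAAA in 5.97% against 8.17%. The GC-rich motifs were thus found in a larger share of members, and TATAAA and CCAAT in a smaller one, in sequence with a median GC content of 56.0% against 52.8% for all union regions near a TSS. The E-boxes searched differ only in their central bases, and a window that held several motifs was counted for each. A match says only that these letters occur.

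Most members lay beside a peak of a line that lacked them. A parental, R1000 or R4000 peak lay within 1 kb of 1276 members (60.0%, 57.9 to 62.1%) and within 5 kb of 1568 (73.7%, 71.8 to 75.5%), with a median distance of 650 bp. Such a peak abutted 157 members directly (7.38%), which a merge that needs 1 shared base keeps apart. Within 5 kb, 54.5% of members had a parental peak, 61.3% an R1000 peak and 51.6% an R4000 peak, and 807 (37.9%) had peaks of all 3 lines. A region present in all 5 lines lay within 5 kb of 592 members (27.8%), and a region that was kept lay within 5 kb of 603 (28.3%). For R100-only and R500-only regions near a TSS, a peak of the absent high-dose or parental lines lay within 1 kb of 36.0% (35.0 to 37.1%) and 43.7% (42.4 to 45.0%), and the median distances were 2750 and 1400 bp. The distal transient regions resembled the members, with such a peak within 1 kb of 55.2% (52.0 to 58.3%) and within 5 kb of 75.7% (72.9 to 78.3%). The word transient therefore describes these bases, and not always the whole promoter.

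**Figure D3:**
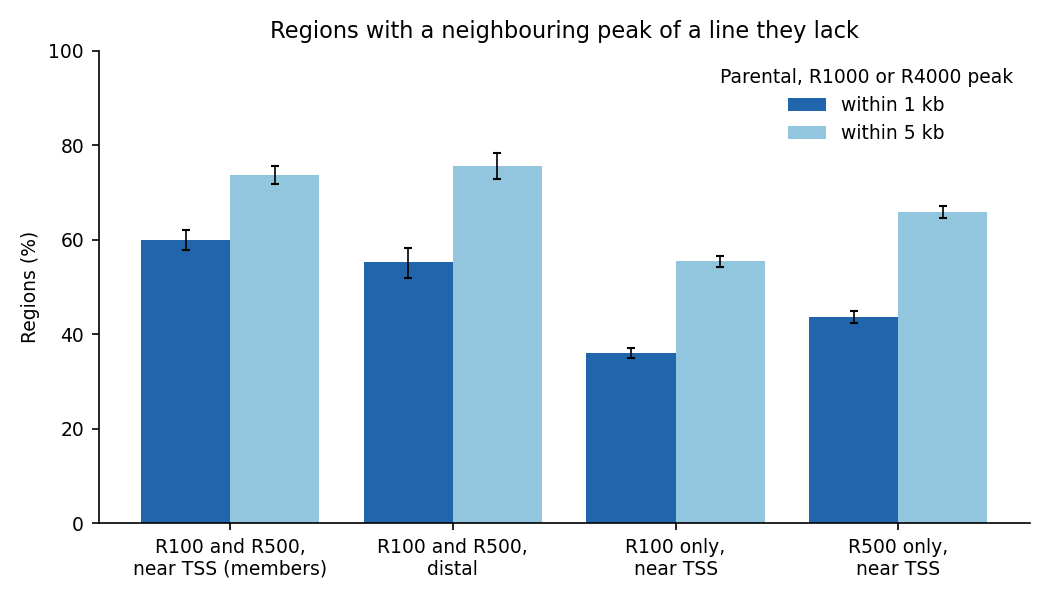
Share of regions (y axis, %) with a parental, R1000 or R4000 peak within 1 kb (dark bars) or 5 kb (light bars), with 95% Wilson intervals that cover counting of regions only. The members reach 60.0% and 73.7%, the distal transient regions 55.2% and 75.7%, the R100-only regions near a TSS 36.0% and 55.4%, and the R500-only regions 43.7% and 65.9%.

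The 559 members with no parental, R1000 or R4000 peak within 5 kb lay closer to the TSS and in more CpG-rich sequence than the 1568 that had one. Their midpoint lay within 1 kb of the TSS in 81.4% (78.0 to 84.4%) of cases, against 48.9% (46.4 to 51.4%) of the flanked members. The first 1 kb downstream of the TSS held 64.4% (60.3 to 68.3%) of them, against 29.7% (27.5 to 32.0%). Of the isolated members 63.7% (59.6 to 67.6%) were CpG-rich, against 30.9% (28.6 to 33.2%) of the flanked ones, and the median CpG ratio was 0.69 against 0.43. Median widths were 200 and 250 bp. GGGCGG was in 32.9% of isolated and 25.4% of flanked members, and CCGGAAG in 6.26% and 4.21%. These are intervals on the counting of regions, and neighbouring regions of 1 domain are not independent.

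Some wide members belonged to the isolated class. At B3gnt7, a glycosyltransferase gene, R100 covered 850 bp and R500 covered 550 bp. Bag3, a co-chaperone of Hsp70, had a member across its TSS with 800 bp covered in R100 and 350 bp in R500. Trib1, a pseudokinase gene, had 800 and 300 bp covered in R100 and R500, and Dlx3, a homeobox gene, had 700 and 450 bp. Within 5 kb of the TSS of Bag3, Trib1, Dlx3 and B3gnt7, the parental, R1000 and R4000 lists covered 0 bp.

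Counted by gene, 2185 annotated genes had a member within 5 kb of the TSS, among them 1749 of the 22380 protein-coding genes. That background of 7.82% is the level against which the lists are read. The 1749 genes carried peaks of other lines more often than protein-coding genes at large. A parental peak lay within 5 kb of the TSS of 828 of them (47.3%, 45.0 to 49.7%), against 11% of all protein-coding genes, an R1000 peak of 950 (54.3%) against 14.4%, and an R4000 peak of 802 (45.9%) against 12.5%. Peaks of all 3 lines were found at 550 (31.4%) against 6.21%. The 1749 genes were chosen for having peaks, whereas 78.9% of all protein-coding genes had no peak of these 3 lines. By region, a parental peak lay within 5 kb of 54.5% of members and of 54.9% of all union regions near a TSS, some of which hold a parental peak themselves. The share was 37.1% in R100-only and 47.5% in R500-only regions near a TSS. At 565 genes, 2.52% of all protein-coding genes and 32.3% of the 1749, no parental, R1000 or R4000 peak lay in the window, and the mark was found there in R100 or R500 only. Within 5 kb of the TSS, the median gene with a member had 550 bp covered by R100 peaks, 500 bp by R500 peaks and 50 bp by R1000 peaks, with a median of 0 bp for the parental and R4000 lists. Because the genes were chosen by their members, higher coverage in R100 and R500 follows from the rule and is a description only.

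Hox genes, which set position along the body axis, had a share of genes with a member far above the background of 7.82%. Of 40 entries, with Hoxa3 under 2 identifiers, 26 had a member (65.0%, 49.5 to 77.9%). Entries of 1 cluster can share a member and are not independent, which the interval does not cover. A parental peak lay within 5 kb of the TSS at 23 of the 26 and at 31 of all 40 entries. The median coverage of these 26 entries within 5 kb of the TSS was 975 bp (parental), 2984 bp (R100), 2484 bp (R500), 900 bp (R1000) and 500 bp (R4000), where the choice by members raises R100 and R500. In all of them together it was 32.8, 82.3, 83.2, 33.8 and 22.5 kb, in windows that overlap within a cluster. The 46 member regions near Hox genes had a median width of 250 bp, 45 of them had a peak of another line within 5 kb, and 23 lay within 5 kb of a region of all 5 lines. Members at Hox genes thus lay beside peaks of the other lines in nearly every case. With peaks within 1000 bp joined into 1 region, 5 of 40 Hox entries had a member. The counts were 20 of 115 other developmental factors, 10 of 65 translation factors and 10 of 64 detoxification and efflux genes. Of all 22380 protein-coding genes 1359 had one. These are small counts without intervals, so the lists were not ranked under this setting. Within 2 kb of the TSS 15 Hox entries had one, with no other peak within 5 kb 1 had one, and with lists of equal number (the 6820 widest peaks of each line) 14 had one. In the same order, 1426, 551 and 485 of all protein-coding genes had one.

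Hoxd10 and the overlapping gene model Gm14396 had 6 members each, the most among protein-coding genes. Within 5 kb of its TSS the 5 lists covered 250 bp (parental), 2050 bp (R100), 2900 bp (R500), 950 bp (R1000) and 100 bp (R4000). One of its members, 450 bp wide, covered the TSS, and the 6 lay 50 to 1050 bp from the nearest parental peak. Hoxc13 had 5 members, and its window held 150 bp of parental, 3017 bp of R100, 2267 bp of R500, 400 bp of R1000 and 600 bp of R4000 peaks. At Hoxb5 a member of 750 bp lay 100 bp from an R1000 peak, and the window held 0 bp of parental and 0 bp of R4000 peaks. Of the Hox genes with a member, Hoxa4 alone had no peak of the other lines in its window, with 700 bp in R100 and 500 bp in R500.

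Other developmental transcription factors of the Lhx, Pax, Irx, Nkx, Dlx, Emx, Otx, Sox, Tbx, Fox, Gata and Neurog/Neurod families and of the family of Six2 had a member at 50 of 115 genes (43.5%, 34.8 to 52.6%). The count was 20 with peaks joined, 33 within 2 kb of the TSS, 23 and 5 with no other peak within 1 and 5 kb, and 30 with lists of equal number. In the same order, 1359, 1426, 807, 551 and 485 of all protein-coding genes had a member. A parental peak was present at 38 of the 50 and at 55 of all 115 genes. The median coverage of the 50 within 5 kb of the TSS was 350 bp (parental), 2425 bp (R100), 2124 bp (R500), 400 bp (R1000) and 275 bp (R4000), where the choice by members raises R100 and R500. At Foxf1a, a forkhead factor of mesoderm with 4 members, the window held 0, 2500, 1750, 0 and 750 bp in the same order of lines. At Pax2, a kidney and neural factor with 2 members, it held 450, 3901, 3262, 650 and 700 bp. Gata2, a regulator of blood stem cells with 3 members, had 150, 3801, 2785, 550 and 335 bp. The windows of Sox13, Nkx2-2, Sox18, Lhx5, Dlx3 and Foxf2 held no peak of the parental, R1000 and R4000 lines. That is 6 of the 50, against 32.3% of all protein-coding genes with a member. Outside this list, Onecut1, a liver and neural homeobox gene with 5 members, had 0, 2673, 1550, 150 and 50 bp.

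**Figure D4:**
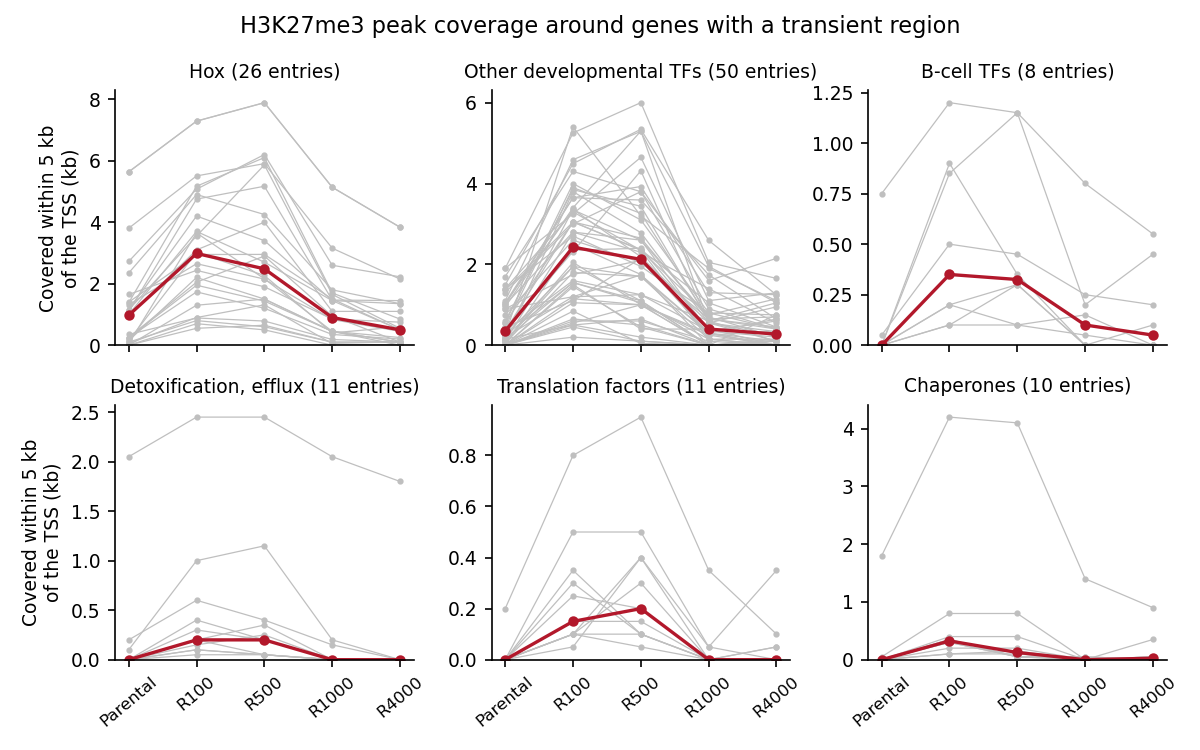
Bases covered by H3K27me3 peaks within 5 kb of the TSS (y axis, kb, a scale of its own in each panel) in the 5 lines (x axis) for the entries with a member in 6 gene lists. Grey lines are single entries and the red line is their median, and the choice of genes by their members raises R100 and R500. The Hox and other developmental panels keep medians above 0 in all 5 lines, at 975 and 350 bp in the parental line, and the detoxification and efflux and translation factor panels have medians of 0 bp in the parental, R1000 and R4000 lines.

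Regulators of B-cell identity included 8 of 27 genes with a member (29.6%, 15.9 to 48.5%), in 10 regions with a median width of 150 bp. With lists of equal number, 1 gene of this list had a member, while the count over all 22380 protein-coding genes fell from 1749 to 485. Tcf3 encodes E2a, which the study links to resistance, and held a member in an intron at chr10:79895151-79895550, 842 bp downstream of its TSS. R100 covered 150 bp and R500 covered 300 bp of it, with 50 bp in both, and the nearest peak of another line lay 28750 bp away. Ebf1, which acts with E2a early in the B lineage, held 2 intronic members, of 150 and 600 bp, and the wider was covered over 600 bp in R100 and 250 bp in R500. The nearest peak of another line was 149750 bp from that member. Tcf3 and Ebf1 were the 2 B-cell regulators with a member whose windows held no parental, R1000 or R4000 peak. That is 2 of 27, against 2.52% of all protein-coding genes, a small count without an interval that is not read as an excess. Tcf12, a partner of E2a, had a member 150 bp wide, covered over 150 bp in R100 and 100 bp in R500, 626 bp downstream of its TSS.

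The other B-cell regulators had peaks of R1000 or R4000 close by. Foxo1, a forkhead factor needed for B-cell development, had a member of 100 bp that lay 50 bp from an R1000 peak. Myb, a progenitor factor, had one of 150 bp, 650 bp from an R4000 peak, and Pou2af1, a B-cell coactivator, had one of 150 bp, 750 bp from an R1000 peak. Bcl11a, needed for early B cells, held 2 members upstream of its TSS, and an R4000 peak abutted one of them. Bcl6, the germinal centre repressor, had a member of 150 bp that lay 150 bp from a parental peak, with 750, 1200, 1150, 800 and 550 bp covered in its window from the parental line to R4000. Among 12 B-cell surface and receptor genes, 1 had a member (8.33%, 1.49 to 35.4%), near the background of 7.82%. It was Cd79b, a subunit of the B-cell receptor, with 500 bp covered in R100 and 50 bp in R500. Of 11 T-cell and myeloid genes none had one (upper bound of the interval 25.9%). The lists hold no expression, so the lineage of the lines was not checked against marker levels.

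Genes of detoxification and drug efflux (aldehyde dehydrogenases, glutathione transferases and ABC transporters) included 11 of 64 with a member (17.2%, 9.88 to 28.2%). At 8 of the 64, against a background of 2.52% of genes, a member was present and no other line had a peak. No interval was computed for this count. With lists of equal number, 2 of these genes had a member, while the count over all 22380 protein-coding genes fell from 1749 to 485. Abcb1a and Abcb1b, which encode P-glycoprotein, each had a member of 350 bp across the TSS. At Abcb1a, R100 and R500 covered 200 bp each with 50 bp in common, and at Abcb1b R100 covered 350 bp and R500 covered 200 bp. The nearest peak of another line was 37750 bp from the first and 175900 bp from the second. Abcc4, an efflux pump for nucleotides and drugs, had a member 460 bp upstream with 100 bp covered in R100 and 250 bp in R500. The remaining isolated genes were Aldh1a3, Aldh6a1, Aldh7a1, Gsta4 and Gstt2, with members of 50 to 200 bp, and the last 2 had members of 50 bp, the smallest unit of the grid. Aldh1l2, Aldh1a2 and Gsto1 had parental peaks in their windows, and the widest member, at Aldh1l2, was covered over 450 bp in R100 and 850 bp in R500.

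Genes of protein synthesis were examined as translation factors and as ribosomal proteins. Among translation factors, 11 of 65 genes had a member (16.9%, 9.72 to 27.8%). At 6 of the 65 a member was present and no other line had a peak, against 2.52% of all protein-coding genes. No interval was computed for this count either. The symbol pattern also took in the Argonaute genes Eif2c1 and Eif2c4 and the kinase gene Eif2ak3. With lists of equal number, none of this list had a member, against 3 large-subunit ribosomal protein genes and 485 of all 22380 protein-coding genes. Eef1g, an elongation factor subunit, was covered over 100 bp in R100 and 400 bp in R500 from 270 bp downstream of its TSS, and Eef1e1 over 300 and 100 bp. Of 49 large-subunit ribosomal protein genes 6 had a member (12.2%, 5.73 to 24.2%), among them Rplp2, Rpl38, Rpl17, Rpl39 and Rpl10. This interval includes the background of 7.82%. Rpl39 was covered over 50 bp in R100 and 600 bp in R500, with peaks of all other lines within 250 bp, and at Rpl38 R1000 and R4000 peaks abutted the member. Of 34 small-subunit genes 1 had a member, Rps21, with 350 bp covered in R100 and 300 bp in R500. Yet 28 and 31 of these 34 genes had some R100 and R500 peak, and 12, 20 and 29 had a parental, R1000 and R4000 peak. Peaks were thus frequent there. The share of small-subunit genes with a member was 2.94% (0.521 to 14.9%), an interval that includes the background of 7.82%.

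Mitochondrial ribosomal proteins included 7 of 76 genes with a member (9.21%), and the widest were at Mrps2, Mrps25 and Mrps9. At 6 of the 76 a member was present and no other line had a peak, against 2.52% of all protein-coding genes. The same held for 6 of 136 RNA processing genes and 4 of 86 respiratory chain genes. These are small counts without intervals. RNA processing proteins included 11 of 136 (8.09%), ribosome biogenesis factors 3 of 47 (6.38%, Ncl, Npm1 and Rrp7a) and aminoacyl-tRNA synthetases 3 of 37 (8.11%, Dars, Sars and Vars), all near the background of 7.82%. At U2af1, a splicing factor gene, R100 covered 300 bp and R500 50 bp of an intronic member. Prpf38a, another splicing gene, shares its member with the divergent origin recognition gene Orc1. Npm1, the nucleolar histone chaperone nucleophosmin, had 250 bp covered in R100 and 100 bp in R500, and an R1000 peak 300 bp away. The respiratory chain had 7 of 86 (8.14%), also near the background, with Uqcrfs1 covered over 300 bp in R100 and 50 bp in R500.

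Of cyclin, Cdk and Cdc genes, 7 of 61 had a member (11.5%, 5.67 to 21.8%), an interval that includes the background of 7.82%. Of their 8 regions 7 were CpG-rich, against 39.5% of all members. Other lists had high counts too, namely 6 of 6 regions for replication and mitosis, 11 of 13 for RNA processing and 8 of 11 for translation factors. Lower counts were found for Hox, with 11 of 46, and for detoxification and efflux, with 4 of 12. These counts have no intervals, and a high share was not particular to the cyclin, Cdk and Cdc regions. Ccna2, cyclin A2 of S and G2 phase, had the widest, of 650 bp, covered over 650 bp in R100 and 200 bp in R500, and the nearest peak of another line lay 49500 bp away. Ccnh, Ccnf and Cdc5l were likewise without peaks of the other lines, with 250 and 300 bp, 50 and 50 bp, and 150 and 50 bp covered in R100 and R500. Cdk6, Cdc14b and Ccno had parental peaks in their windows, and that of Ccno held 1600, 3600, 4750, 2200 and 1850 bp from the parental line to R4000. Replication and mitosis genes included 5 of 46 (10.9%), and the member at Plk1, a mitotic kinase, was covered over 100 bp in R100 and 250 bp in R500. Orc2 was covered over 450 and 250 bp, and Mcm4, a helicase subunit, over 150 and 100 bp.

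In the Bcl2 family and p53 pathway, 4 of 36 genes had a member (11.1%, 4.41 to 25.3%), an interval that includes the background of 7.82%. At 3 of the 36 a member was present and no other line had a peak, against 2.52% of all protein-coding genes. This small count has no interval and is not read as an excess. Bcl2, the founding inhibitor of apoptosis, had a member of 200 bp in its UTR, covered over 200 bp in R100 and 50 bp in R500. Bmf, a BH3-only activator of apoptosis, had 100 bp covered in both lines, and Gadd45b, a stress response gene, had 100 and 200 bp. Gadd45g had 4 members, of which 3 abutted a peak of another line, and 1950, 4300, 3850, 1400 and 950 bp covered in its window. Of DNA repair genes 2 of 46 had a member (4.35%, 1.20 to 14.5%), namely Xrcc5, which encodes Ku80, and Fancd2.

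Chaperones had a member at 10 of 83 entries (12%, 6.68 to 20.8%), with Hspa14 under 2 identifiers and 1 region shared by the neighbours Hspd1 and Hspe1. This interval includes the background of 7.82%. Hspa5, the chaperone of the endoplasmic reticulum, was covered over 150 bp in R100 and 200 bp in R500 with the nearest peak of another line 15000 bp away, whereas an R4000 peak abutted the member of Hsp90ab1. Dnaja4 had 350 bp covered in R100 and 200 bp in R500, and a parental peak 50 bp away. The Zfp zinc fingers with 15 of 344 (4.36%, 2.66 to 7.07%) and the olfactory receptors with 0 of 1087 (upper bound 0.352%) had intervals below the background. The proteasome with 1 of 50 (Psmd7, up to 10.5%), the clustered histones with 1 of 67 (Hist3h2ba, up to 7.98%) and PRC2 with 0 of 11 (up to 25.9%) had low shares with intervals that include the background, as did the small-subunit ribosomal proteins, ribosome biogenesis, DNA repair and the T-cell and myeloid genes. The widest members of the zinc finger list were at Zfp697 and Zfp593, of 500 bp each.

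**Figure D5:**
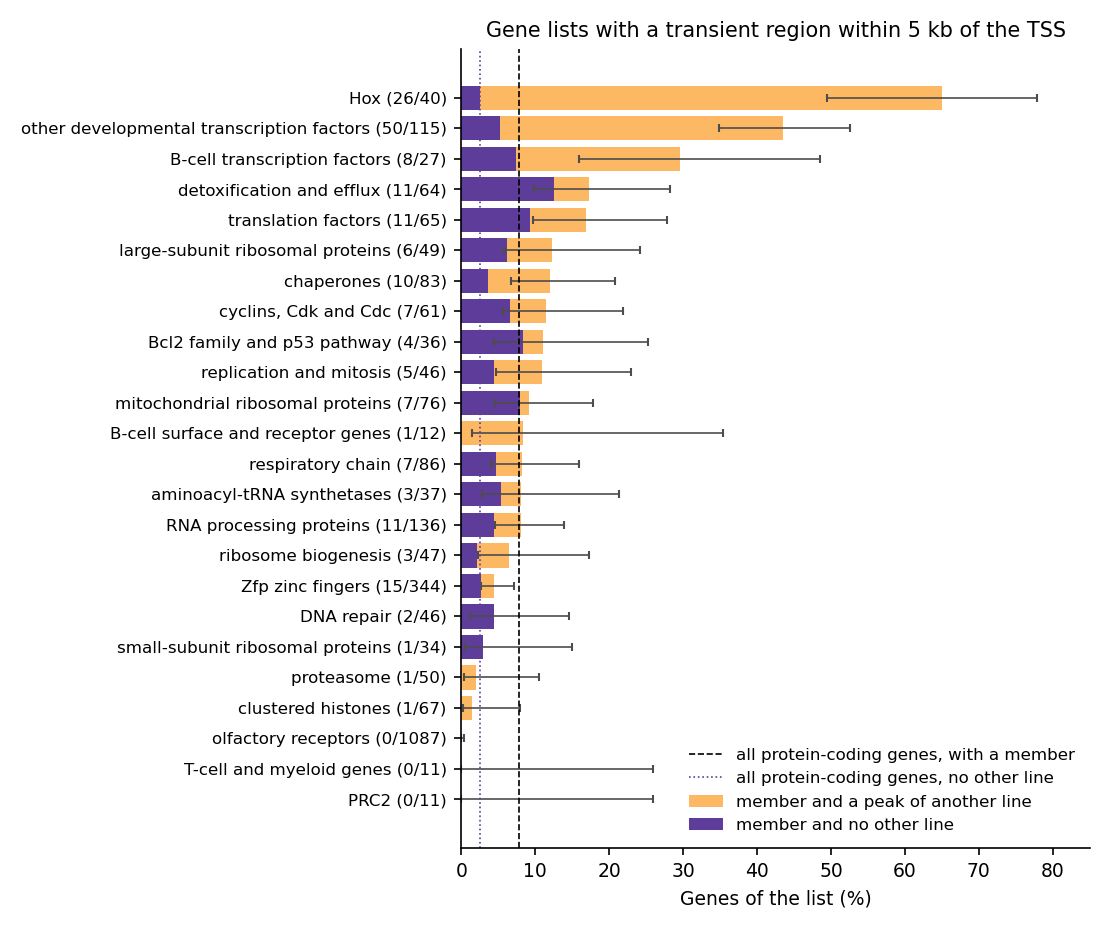
Share of the genes of each list with a member within 5 kb of the TSS (x axis, %, counts beside the names), split into genes with no parental, R1000 or R4000 peak in that window (purple) and genes with one (orange), with 95% Wilson intervals on the whole share. The dashed and dotted lines are the shares of all protein-coding genes, 7.82% and 2.52%. Hox is at 65.0% and other developmental factors are at 43.5%, with intervals that overlap, and both are mostly orange. The detoxification and efflux list is mostly purple, as are others, among them the mitochondrial ribosomal protein, Zfp zinc finger, cyclin and translation factor lists. The intervals treat genes as independent, which neighbours in a Hox cluster are not.

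Of all 37310 annotated genes 5.86% had a member. Of 1273 lincRNA genes 138 had one (10.8%), above that share, and of 1577 miRNA genes 60 had one (3.80%), below it. The lincRNA A930011O12Rik and Mir124a-1, the gene of a neuronal microRNA, share a locus on chromosome 14 and had 6 members each, and the window of Mir124a-1 held 0 bp of parental, 857 bp of R100, 750 bp of R500, 0 bp of R1000 and 100 bp of R4000 peaks. At Mir148a, R100 covered 500 bp and R500 covered 950 bp of a member 42 bp upstream of the gene's 5′ end. Immunoglobulin J genes had a member in 9 of 88 cases (10.2%), but these came from 2 regions, 1 of 100 bp over the Igkj genes on chromosome 6, which an R1000 peak abutted, and 1 of 500 bp beside Ighm on chromosome 12.

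Members lay on all autosomes and on X, and made up between 5.79% (chromosome 16) and 10.4% (chromosome 13) of the union regions near a TSS on each chromosome. The limit of 5 kb divided regions that lay almost equally far from a TSS. Just inside it were members 4969 bp from Hoxb8, 4985 bp from Gata2 and 4995 bp from Ndufv1, and just outside it regions 5006 bp from Lhx5, 5035 bp from Gm11003 and 5040 bp from Fam71f1. Of the other genes that the study names, Myc, Cdkn2a, Suz12, Mtf2 (Pcl2), Sfpi1 (PU.1), Uty and Ezh2 had no member within 5 kb of the TSS. At Myc all 5 lines had a peak in that window, and at Cdkn2a, Sfpi1 and Uty none had.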

How the data were processed

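H3K27me3 ChIP-seq peak lists of the 5 lines were used; the RRBS samples were not analysed here. The authors sequenced 50-bp reads, used Poisson statistics to call peaks over input in tiled genomic windows, and deposited 1 list per line of 3 columns (chromosome, start, end). What the authors deposited is thus position alone. The submitters' processing notes name Bowtie and mm9, and the threshold of the lists and any pooling of replicates are not given in the sources used here. The R100 and R500 lists hold every peak 2 times, and distinct peaks were used. No peak lay beyond the end of any of 21 chromosomes of NCBIM37 (mm9), from which sequence was read, and genes were those of GENCODE vM1, matched by symbol.

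Union regions, distances to peaks (bases in between) and to the gene 5′ end, and covered bases were obtained with Python 3.11.15, numpy 2.4.6, pandas 2.3.3 and scipy 1.17.1, and plotted with matplotlib 3.10.9. The region step was tested on simulated data, where 0 of 389 regions differed from a base-by-base count. Wilson intervals cover counting only, and no test was made. The members and gene lists were chosen with earlier results of these data known.

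Genes named are the 12 widest members, the 3 genes with the widest members of each list, the genes with most members, the regions nearest to the 5 kb limit and the genes named in the study, some of which are not reported here. Further genes were chosen after their values were seen, namely all members of the shorter lists, examples among the developmental factors, the widest isolated members and the immunoglobulin genes. Sequences are those of the first 4 widest members and of 1 gene in each of several lists, and Tcf3 was added as the study's gene, all outside UTRs.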

Additional observations from a re-analysis of the deposited data

How the results depend on the processing

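Depth, peak heights and the variation between cultures are unknown, so every count rests on what was called in 1 list per line. No paired analysis was possible because each line has 1 list and no test was made. The number of members fell from 2127 to 1357 with peaks within 1000 bp joined, 851 with no parental, R1000 or R4000 peak within 1 kb, 559 with none within 5 kb (chosen after seeing the data) and 512 with lists of equal number (the 6820 widest peaks each). Protein-coding genes with a member fell from 1749 to 807, 551 and 485 under the last 3 of these. The share of transient regions near a TSS, 68.7%, was 71.3% for peaks of at least 100 bp, 59.2% with peaks joined, 54.1% within 2 kb, 62.6% for protein-coding genes only, 74.8% with any transcript start, 66.2% and 70.4% with no other peak within 1 and 5 kb, and 74.6% with lists of equal number. The median covered length, 150 bp in R100 and in R500, was 200 bp in both for peaks of at least 100 bp, 350 and 300 bp with lists of equal number, and 100 bp in R500 with peaks joined or with no other peak within 1 or 5 kb. The share of midpoints within 1 kb of the TSS, 57.5%, was 67.3% with peaks joined, 73.0% within 2 kb, 63.4% with any transcript start, and 68.6% and 81.4% with no other peak within 1 and 5 kb. The median GC content of 56.0% and CpG ratio of 0.511 were 57.8% and 0.628 with peaks joined, 58.0% and 0.587 within 2 kb, 58.2% and 0.628 with no other peak within 1 kb, 59.8% and 0.694 within 5 kb, and 57.6% and 0.547 with lists of equal number. With autosomes only, none of these values moved beyond its interval or 1.5-fold limit. The Hox genes with a member numbered 26, and 5 with peaks joined, 9 and 1 with no other peak within 1 and 5 kb, and 14 with lists of equal number. Translation factors went from 11 to 0 and detoxification and efflux genes from 11 to 2 with lists of equal number, where the narrow peaks of R100 and R500 are left out. Under the same setting all protein-coding genes with a member went from 1749 to 485.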
